A study of Homo sapiens with 4 samples.

Results

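The genes described here encode 10 transcription factors of the AP-1 group: JUN, JUNB and JUND, FOS, FOSB, FOSL1 and FOSL2, BATF3, and the small MAF factors MAFF and MAFK. They were taken by gene symbol from a table of 57815 genes, and each of the 10 symbols matched 1 gene. Expression was measured by RNA-Seq in MDA-MB-231, a line of triple-negative breast cancer cells, and in LM2-4175 (LM2), a line isolated from MDA-MB-231 that spreads preferentially to the lung. Both lines were untreated, were cultured in DMEM with fetal bovine serum and gave 2 libraries each, 4 in all. The study set the lines side by side to find genes associated with lung metastasis. As the parental line was compared with a single line isolated from it, a difference between them belongs to these lines and their cultures.

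AP-1 is a dimer of basic leucine zipper (bZIP) proteins that binds short palindromes in promoters and enhancers. JUN proteins pair with each other and with FOS proteins, and FOS proteins need a JUN-type partner. FOS and JUN are classical immediate-early genes, whose RNA rises within minutes of stimulation by serum, growth factors or stress, while FOSL1 (FRA-1) and FOSL2 (FRA-2) respond later and for longer. FOSL1 is known for high expression in invasive, mesenchymal-like breast cancer cells. BATF3 and the small MAF factors carry a bZIP domain without a transactivation domain, and the small MAF factors also pair with NRF2 and with the BACH repressors.

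Expression was given as FPKM, the number of sequenced fragments scaled by transcript length and by all mapped fragments, with a lower and an upper bound. The authors combined the libraries of a cell line in 1 value, so this table allows no replicate check and no p-value is given for any difference below, and it is not stated whether spread between the libraries enters the bounds. A difference was called where FPKM + 1 differed at least 1.5-fold and the bounds of both lines were apart. Log2 fold changes below compare LM2 with MDA-MB-231 on the scale of FPKM + 1, which understates changes of low genes, and other folds and ratios are of the FPKM itself. The gene had to have a mean of at least 0.5 FPKM, which left 13911 genes and all 10 AP-1 genes.

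MAFF and JUN were higher in LM2, FOS was lower, and the other 7 AP-1 genes were not called. Of all genes tested, 4.67% were called higher and 4.61% were called lower. The median log2 fold change was 0.17 over the 10 AP-1 genes and -0.04 over all genes tested. A higher FPKM in LM2 was seen in 6 of the 10, and in 6326 of all 13911 genes tested. Counted by the fold alone, MAFF, JUN and FOS were again the only AP-1 genes past the threshold, where 10.3% of all genes were higher and 11.8% lower. RNA from whole cultures does not separate less RNA per cell from fewer cells with the RNA.

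**Figure D1:**
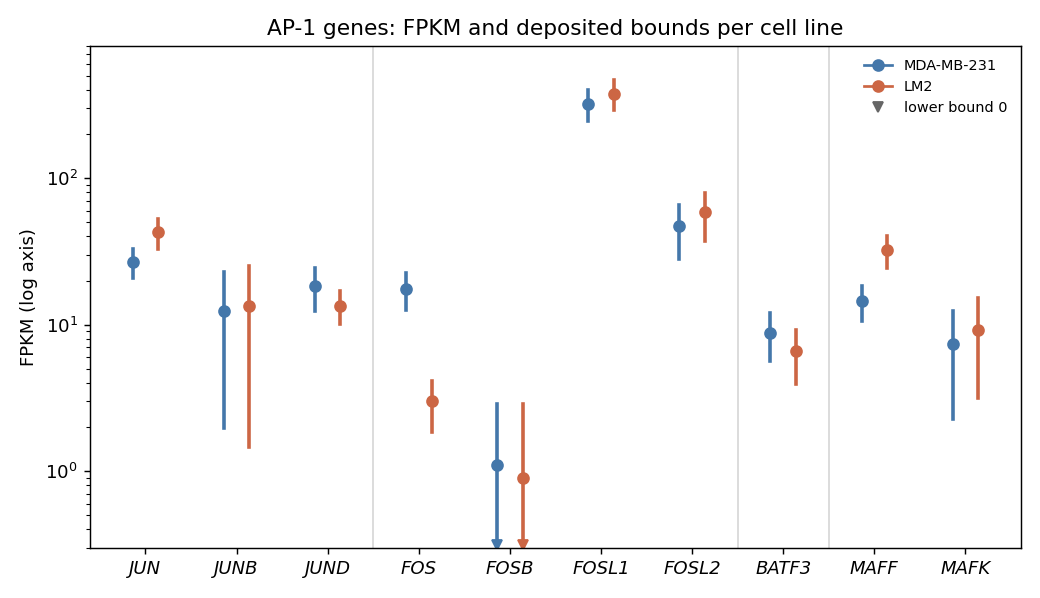
FPKM of the 10 AP-1 genes on a log axis in MDA-MB-231 (blue) and LM2 (orange), 1 value per cell line, where vertical lines are the deposited bounds and a triangle marks a lower bound of 0. FOSL1 stands above the other genes in both lines, and the bounds are apart for JUN, FOS and MAFF.

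The sequences before the RefSeq starts of the called genes are shown, so that the motif matches in them can be read in place. RefSeq promoters, here on GRCh38.p14, were found for 7 of the 10 AP-1 genes, and the 250 bases before the first listed start are printed in the direction of transcription. Capitals mark exact matches to the motifs searched. JUN lies at chr1:58784048-58784297 on the minus strand, FOS at chr14:75278578-75278827 on the plus strand and MAFF at chr22:38201744-38201993 on the plus strand.
JUN: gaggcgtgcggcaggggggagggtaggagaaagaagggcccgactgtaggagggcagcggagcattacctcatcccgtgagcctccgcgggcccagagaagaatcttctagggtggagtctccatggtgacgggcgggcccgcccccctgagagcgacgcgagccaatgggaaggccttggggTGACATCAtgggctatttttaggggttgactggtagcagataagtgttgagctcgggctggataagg
FOS: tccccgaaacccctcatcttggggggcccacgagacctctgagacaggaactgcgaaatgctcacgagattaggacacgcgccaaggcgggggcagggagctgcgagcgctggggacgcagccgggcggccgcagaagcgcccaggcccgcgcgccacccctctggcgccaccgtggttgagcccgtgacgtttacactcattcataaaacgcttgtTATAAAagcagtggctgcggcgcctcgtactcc
MAFF: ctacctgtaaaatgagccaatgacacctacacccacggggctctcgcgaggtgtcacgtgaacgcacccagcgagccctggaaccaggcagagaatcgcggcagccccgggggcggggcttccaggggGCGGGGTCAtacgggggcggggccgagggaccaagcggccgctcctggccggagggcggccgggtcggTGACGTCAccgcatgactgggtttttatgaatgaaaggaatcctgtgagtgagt

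The JUN promoter held TGACATCA, the variant of the AP-1 site through which JUN is known to act on its own gene, with its first base at position -67 relative to the start. This motif was found in 2.61% of 35116 RefSeq promoter windows of 300 bases, searched on both strands. The MAFF promoter held the cyclic AMP response element TGACGTCA, present in 1.85% of all windows, at position -54. It also held the core of the antioxidant response element, TGACNNNGC, which small MAF dimers can bind and which 13.3% of all windows hold, in reverse complement at position -122. In FOS the only match was a TATA box (TATAAA, 11.5% of all windows) at position -33. JUNB and FOSB also held a TATA box, JUND held TGACGTCA and the antioxidant core, and FOSL2 held the consensus AP-1 site TGACTCA (TRE, 4.95% of all windows) after the start. CATATTAGG, part of the serum response element known from FOS, was found in 0.0797% of all windows and in none of the 7 genes. Sequence farther than 250 bases before a start was not searched. The search therefore cannot tell whether FOS holds its serum response element farther upstream.

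**Figure D2:**
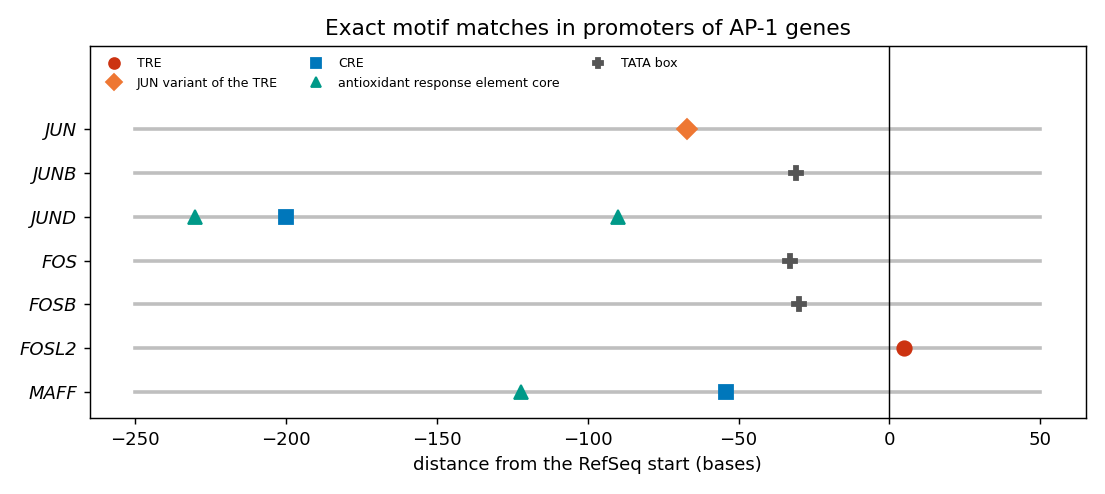
Positions of exact motif matches (symbols, first base of the match on the printed strand) in 7 AP-1 promoters from 250 bases before to 50 bases after the RefSeq start; the horizontal axis is the distance from the start in bases, and the first listed start is shown for MAFF. The JUN and MAFF matches nearest to the start lie at -67 and -54.

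Among the JUN genes, JUN had the highest level in both cell lines. JUN (ENSG00000177606, chromosome 1 of GRCh37, 59242517 to 59249720, minus strand, 1 exon) had 26.8 FPKM (bounds 20.7 to 32.9) in MDA-MB-231 and 42.6 FPKM (bounds 33.0 to 52.2) in LM2. It was 1.59-fold higher in LM2, with a log2 fold change of 0.65. The call rests on a gap of 0.0153 FPKM between the upper bound in MDA-MB-231 and the lower bound in LM2, and at a 2-fold threshold JUN was not called.

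JUND, which is expressed more evenly than JUN in most cells and can restrain growth, had a lower value in LM2 that was not called. JUND (chromosome 19, 18390504 to 18392432, minus strand, 1 exon) had 18.3 FPKM (bounds 12.3 to 24.3) in MDA-MB-231 and 13.5 FPKM (bounds 10.0 to 16.9) in LM2, a difference of -0.42 on the log2 scale with overlapping bounds. JUNB (chromosome 19, 12902300 to 12904129, plus strand, 1 exon), which often dampens JUN activity, had nearly equal levels of 12.4 FPKM (bounds 1.97 to 22.8) in MDA-MB-231 and 13.4 FPKM (bounds 1.46 to 25.3) in LM2. The bounds of JUNB allow any ratio of LM2 to MDA-MB-231 from 0.0641 to 12.8, so a difference in JUNB was not detectable at this precision. Its upper bound lay 84.0% above the FPKM in MDA-MB-231 and 89.1% above it in LM2, against a median of 35.4% and 34.9% for genes within 1.5-fold of its level.

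Summed over the 3 JUN genes, the level was 57.5 FPKM in MDA-MB-231 and 69.4 FPKM in LM2, with summed bounds of 35.0 to 80.0 and 44.5 to 94.4 FPKM that overlap. JUN took 46.6% of this level in MDA-MB-231, against 61.3% in LM2, and JUND took 31.9% and 19.4%. With the most extreme combination of bounds the share of JUN could lie between 30.5% and 69.7% in MDA-MB-231 and between 43.9% and 81.9% in LM2, so the shares did not differ beyond the bounds. Nor did the ratio of JUN to JUND, which does not depend on the scaling between the cell lines. It was 1.46 (range 0.851 to 2.67) in MDA-MB-231 and 3.16 (range 1.95 to 5.20) in LM2.

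FOS showed the widest change of the 10 genes. FOS (ENSG00000170345, chromosome 14 of GRCh37, 75745529 to 75748933, plus strand, 4 exons) fell from 17.6 FPKM (bounds 12.6 to 22.7) in MDA-MB-231 to 2.99 FPKM (bounds 1.84 to 4.14) in LM2. The level was 5.91-fold lower in LM2, and the bounds allow a fold between 3.05 and 12.3. On the log2 scale of FPKM + 1 the change was -2.23, and it stayed between -2.56 and -2.16 and was called under all 9 alternatives tried. Of these, only the 2-fold threshold and the 2 scalings could have removed the call. FOS lay above 60.2% of the genes tested in MDA-MB-231 and above 23.2% of them in LM2.

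FOSB, the other classical immediate-early FOS gene, was at the edge of detection in both lines. It lies on chromosome 19 (45971253 to 45978437, plus strand, 4 exons) and had 1.10 FPKM (bounds 0 to 2.86) in MDA-MB-231 and 0.896 FPKM (bounds 0 to 2.87) in LM2, and with lower bounds of 0 no fold can be bounded. At this precision a difference in FOSB was not detectable.

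FOSL1 was by far the most abundant AP-1 gene. FOSL1 (ENSG00000175592, chromosome 11, 65659520 to 65668044, minus strand, 4 exons) had 323 FPKM (bounds 246 to 400) in MDA-MB-231 and 378 FPKM (bounds 290 to 467) in LM2, which placed it above 98.2% and 98.6% of the genes tested. Its log2 fold change was 0.23 with overlapping bounds, and ratios of LM2 to MDA-MB-231 between 0.725 and 1.90 lie within them. FOSL2 (chromosome 2, 28615315 to 28640184, plus strand, 4 exons) followed with 46.9 FPKM (bounds 28.1 to 65.7) and 58.3 FPKM (bounds 37.4 to 79.2), a log2 fold change of 0.31. Neither late-responding FOS gene was called.

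FOSL1 made up most of the sum over the 4 FOS genes, in which FOS had little weight. The sum was 388 FPKM (bounds 287 to 491) in MDA-MB-231 and 440 FPKM (bounds 329 to 553) in LM2. FOSL1 held 83.1% of it in MDA-MB-231, against 85.9% in LM2, and FOSL2 held 12.1% and 13.2%. The share of FOS was 4.54% in MDA-MB-231, against 0.678% in LM2, and the ranges that the bounds allow, 2.62% to 7.64% and 0.334% to 1.25%, were apart. The ratio of FOSL1 to FOS was 18.3 (range 10.8 to 31.7) in MDA-MB-231 and 127 (range 70.1 to 254) in LM2. JUN and FOS, partners in the classical dimer, had a ratio of 1.52 (range 0.911 to 2.61) in MDA-MB-231 and 14.3 (range 7.97 to 28.4) in LM2. The ranges of both ratios were apart.

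**Figure D3:**
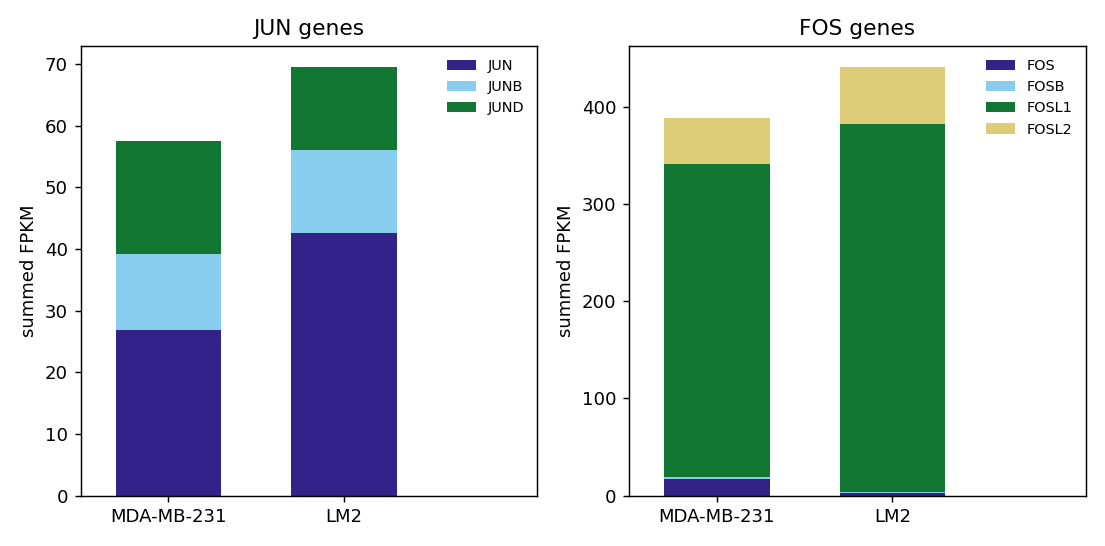
Summed FPKM of the 3 JUN genes (left) and the 4 FOS genes (right) in MDA-MB-231 and LM2, stacked by gene, with 1 value per cell line and no error shown. JUN takes 46.6% and 61.3% of the left bars, and FOSL1 takes 83.1% and 85.9% of the right bars.

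Of the small MAF genes, MAFF was higher in LM2. MAFF (ENSG00000185022, chromosome 22, 38596774 to 38612514, plus strand, 3 exons) rose from 14.4 FPKM (bounds 10.6 to 18.3) to 32.2 FPKM (bounds 24.4 to 40.1), a 2.23-fold change for which the bounds allow 1.33 to 3.79. The log2 fold change of 1.11 was called under all 9 alternatives. Of these, only the 2-fold threshold could have removed the call, since both scalings raise the LM2 values. MAFK (chromosome 7, 1570338 to 1582679, plus strand, 3 exons) had 7.35 FPKM (bounds 2.27 to 12.4) in MDA-MB-231 and 9.22 FPKM (bounds 3.16 to 15.3) in LM2, and was not called. Together MAFF and MAFK had 21.8 FPKM in MDA-MB-231 and 41.5 FPKM in LM2. Their summed bounds, 12.8 to 30.8 and 27.6 to 55.4 FPKM, overlap. This sum leaves out the small MAF gene MAFG, which was placed among the further bZIP genes and is named after its values were seen. MAFG had 19.8 FPKM (bounds 14.1 to 25.6) in MDA-MB-231 and 17.9 FPKM (bounds 13.2 to 22.5) in LM2, and was not called. BATF3 (chromosome 1, 212859759 to 212873182, minus strand, 3 exons), best known for its role in dendritic cells, had 8.82 FPKM (bounds 5.65 to 12.0) and 6.58 FPKM (bounds 3.91 to 9.24), a log2 fold change of -0.37 with overlapping bounds.

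The order of the levels changed in the middle and at the lower end of the group. In MDA-MB-231 it ran FOSL1, FOSL2, JUN, JUND, FOS, MAFF, JUNB, BATF3, MAFK and FOSB, and FOSL1 and FOSL2 were the only neighbours in this order with bounds apart. In LM2 it ran FOSL1, FOSL2, JUN, MAFF, JUND, JUNB, MAFK, BATF3, FOS and FOSB, with bounds apart between FOSL1 and FOSL2 and between MAFF and JUND. FOS dropped from position 5 to position 9, and MAFF rose from position 6 to position 4.

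The bounds and the annotation limit some of these genes. In MDA-MB-231 the upper bounds of JUNB, FOSB and MAFK lay 84.0%, 160% and 69.1% above their FPKM, while those of JUN, FOS and MAFF lay 22.9%, 28.5% and 26.9% above it. Of the exon bases of JUNB, 14.2% also lie in exons of HOOK2, which is transcribed in the other direction. The same holds for 18.1% of MAFK (TMEM184A) and 5.81% of MAFF (PLA2G6), and no source says that strand was used in counting. The exons of JUN, FOS and the other 5 AP-1 genes are free of such overlaps.

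The genes around the called AP-1 genes are given beside the background of all genes, of which 4.67% were called higher and 4.61% lower. Of 6 genes tested within 1 Mb of JUN, all had a lower FPKM in LM2 and 1 was called lower, and the median log2 fold change was -0.20. Of all 13911 genes tested, 7585 had a lower FPKM in LM2. Around FOS, 26 genes tested had a median of -0.08, with PGF called higher and none called lower. JDP2 and BATF, both near FOS and, like PGF, named for their position after their values were seen, encode bZIP proteins that pair with JUN. JDP2, 141 kb away, had 6.63 FPKM in MDA-MB-231 and 7.12 FPKM in LM2, and BATF, 240 kb away, had 2.29 FPKM and 1.09 FPKM and was not called. The 41 genes tested around MAFF had a median of 0.03, with 2 called higher and 3 called lower.

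Of 18 further bZIP genes, which can pair with AP-1 proteins or with small MAF factors, 13 passed the filter. Of these, 1 was called higher (7.69%) and none lower, near the 4.67% and 4.61% of all genes, and their median log2 fold change was 0.02. CREB5, which binds cyclic AMP response elements and pairs with JUN, rose from 1.06 FPKM (bounds 0.224 to 1.90) to 6.42 FPKM (bounds 3.78 to 9.05), a log2 fold change of 1.85. NFE2L2, which encodes the small MAF partner NRF2, had 65.8 FPKM (bounds 44.1 to 87.5) in MDA-MB-231 and 41.1 FPKM (bounds 26.8 to 55.3) in LM2. This was past 1.5-fold, but the bounds overlap; the gene is named after its values were seen.

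The kinases and factors that act on AP-1 gave counts near the background. Of 32 regulator genes, among them the ERK, JNK and p38 kinases with their activators, the serum response factor and its partners, and turnover factors of JUN, 30 were tested and 1 was called in each direction (3.33%, against 4.67% higher and 4.61% lower of all genes), with a median log2 fold change of 0.00. RPS6KA2, an ERK-activated ribosomal S6 kinase, was called higher, from 2.32 FPKM (bounds 0.921 to 3.71) to 7.06 FPKM (bounds 4.64 to 9.48). RPS6KA4, which encodes the kinase MSK2 that phosphorylates CREB, was called lower, from 59.8 FPKM (bounds 41.2 to 78.4) to 29.9 FPKM (bounds 19.6 to 40.3), but not when the cell lines were scaled to the same sum or to a median ratio of 1.

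The immediate-early genes other than FOS and JUN did not move as 1 group. Of 29 such genes, 23 were tested and 3 were called in each direction (13.0%, against 4.67% higher and 4.61% lower of all genes), with a median log2 fold change of 0.22. DUSP1, a phosphatase of MAP kinases, rose from 22.2 to 42.3 FPKM, ZFP36L1 from 64.0 to 119 FPKM and TRIB1 from 3.49 to 7.95 FPKM. SGK1, a serum-induced kinase, fell from 17.8 to 9.04 FPKM, ZFP36, which promotes decay of cytokine mRNA, from 15.7 to 8.99 FPKM and BTG2 from 0.867 to 0.243 FPKM. After either scaling SGK1 alone was called lower. On the log2 scale of FPKM + 1 the widest called change among them, 0.99 in TRIB1, was smaller than that of FOS. By the FPKM itself the widest was in BTG2, 3.56-fold lower in LM2, against 5.91-fold for FOS.

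Of 27 genes known as AP-1 targets, 25 were tested. Of these, 13 were called higher (52.0%) and 2 were called lower (8.0%), against the 4.67% and 4.61% of all genes given above, and their median log2 fold change was 0.83. The list was written from general knowledge with earlier results of these data known, so its count is not independent evidence of a direction, and many of its genes are also targets of NF-kB. On the scale of FPKM + 1 the largest called increases were in IL8, PTGS2, MMP1, IL6 and CSF2. PTGS2, the inducible cyclooxygenase, rose from 0.455 FPKM (bounds 0.204 to 0.706) to 46.0 FPKM (bounds 34.0 to 57.9), and IL6, an inflammatory cytokine, had 12.5 FPKM in MDA-MB-231 against 245 FPKM in LM2. IL8, which encodes the chemokine CXCL8, rose from 7.75 FPKM (bounds 5.33 to 10.2) to 338 FPKM (bounds 260 to 417). MMP1, the interstitial collagenase and a classical AP-1 target, rose from 22.7 FPKM (bounds 17.1 to 28.2) to 643 FPKM (bounds 484 to 803), a log2 fold change of 4.77. CSF2, which encodes the growth factor GM-CSF, rose from 10.1 FPKM (bounds 6.76 to 13.5) to 151 FPKM (bounds 115 to 187).

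The target genes called lower were AREG and TIMP1. AREG, an EGF receptor ligand, fell from 7.08 FPKM (bounds 4.82 to 9.35) to 1.14 FPKM (bounds 0.582 to 1.71), and TIMP1, an inhibitor of metalloproteinases, fell from 395 FPKM (bounds 287 to 503) to 200 FPKM (bounds 144 to 255). The direction of a target therefore varied within the list, and 10 of the 25 genes tested were not called.

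**Figure D4:**
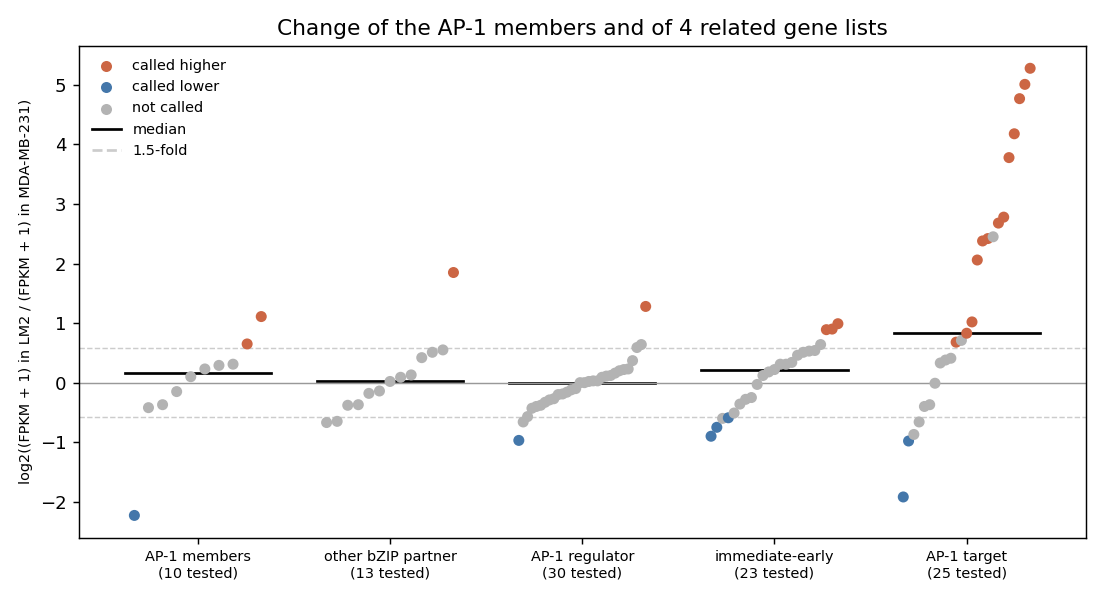
Log2 fold change of LM2 over MDA-MB-231 on the scale of FPKM + 1 for the 10 AP-1 genes and for the genes tested in 4 related lists, 1 point per gene sorted by value, with the median (black line), the 1.5-fold limits (dashed lines) and the calls (colours). The AP-1 target list reaches 5.28 and has a median of 0.83, while the medians of the other lists lie between 0.00 and 0.22.

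Promoters of 17 of the 27 target genes were found in RefSeq, and 3 of these held the TRE, TGACTCA or its reverse complement TGAGTCA, which 4.95% of all windows hold. They are PLAUR, IL8 and IL11, all called higher, and are named here for this match, which was looked up after their values were seen. The TRE was also found in 2 of 14 further bZIP genes (CREB5 and BACH1) and 3 of 29 regulator genes (MAPK10, MAP2K3 and RPS6KA4), and in 0 of 20 immediate-early genes. Of these genes CREB5 was called higher, RPS6KA4 was called lower, BACH1 and MAP2K3 were not called and MAPK10 did not pass the filter. A gene was counted where any of its listed starts held the TRE, while the 4.95% is a share of single windows. CREB5, BACH1 and MAPK10 each had 3 listed starts and MAP2K3 had 2. PLAUR, the urokinase receptor, had 56.4 FPKM in MDA-MB-231 and 101 FPKM in LM2, and IL11 had 16.2 and 88.6 FPKM. The 29 bases around each TRE, in capitals, are given in the direction of transcription on GRCh38.p14, for PLAUR from chr19:43670338-43670366 on the minus strand, for IL8 from chr4:73740421-73740449 on the plus strand and for IL11 from chr19:55370542-55370570 on the minus strand.
PLAUR: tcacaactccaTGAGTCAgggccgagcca
IL8: aggaagtgtgaTGACTCAggtttgccctg
IL11: ggcagggagggTGAGTCAggatgtgtcag

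Marker genes were checked for the cell type that both labels name. LM2 was isolated from MDA-MB-231, so this check does not test which line is which. ESR1 and PGR, the hormone receptor genes that triple-negative cells lack, had at most 0.0331 FPKM, and VIM had 1355 FPKM in MDA-MB-231 and 1768 FPKM in LM2 with CDH1 below 1 FPKM in both. ERBB2 had 35.0 and 22.8 FPKM, and the keratin genes KRT8 and KRT18 were lower in LM2, at 180 and 181 FPKM against 626 and 448 FPKM. The blood cell markers PTPRC and CD3E had at most 0.0767 FPKM in either line. Of the fibroblast markers, COL1A1 was higher in LM2 (3.16 and 31.0 FPKM), PDGFRB (9.44 and 1.91 FPKM) and LUM were lower and DCN had at most 0.137 FPKM. Their part in the AP-1 values was not tested.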

How the data were processed

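The 2 libraries of each cell line were made from total RNA and sequenced as paired reads. Per the study's methods, TopHat 2.0 placed the reads on hg19 and Cufflinks quantified the genes of GENCODE 19, while the processing notes also name Cuffdiff. The file that the authors deposited gives each gene a status and an FPKM with its lower and upper bounds, once per cell line. The normalization between libraries and the use of strand are not given in the sources used here, and no counts were used. The study lists the aligned read pairs of each library, which were not used here. The bounds describe the precision of a value and do not measure depth. The upper bound lay a median of 38.6% (MDA-MB-231) and 38.1% (LM2) above the FPKM over the genes tested.

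The log2 ratio of FPKM + 1 and the calls were computed over the whole table in Python 3.11.15 with NumPy 2.4.6 and pandas 2.3.3, checked on simulated data, and drawn with Matplotlib 3.10.9. Genes with status OK and a mean of at least 0.5 FPKM were tested. Bounds of ratios and shares combine the opposite bounds of both values. Positions and exon overlaps are from GENCODE 44 on GRCh37, and promoters from RefSeq on GRCh38.p14. The AP-1 genes and the 4 lists were chosen with earlier results of these data known. Named are all AP-1 genes, at most 5 genes called in each direction of a list, and genes said to be chosen later. Of 16 marker genes, 15 were found. Of these, 1 is not reported here.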

Additional observations from a re-analysis of the deposited data

How the results depend on the processing

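No paired analysis was possible because the table holds 1 combined value per cell line, and for the same reason no library could be left out. Each AP-1 gene kept its direction under the alternatives tried (another or no pseudocount, 2 other filters, 3 other call rules and 2 scalings), and each kept its call except JUN. Only the 2 scalings could have turned a direction. FOSB could not be tested at a mean of at least 5 FPKM. The log2 ratios of the summed FPKM moved by less than the bounds allow. A 2-fold threshold left 1 AP-1 gene called higher, 0 immediate-early genes called in either direction, 0 regulator genes called lower and 1 target gene called lower. When the filter was raised to 5 FPKM, 0 further bZIP genes and 0 regulator genes were called higher and 1 target gene lower. The fold alone gave 2 further bZIP genes lower, 3 regulator genes higher and 2 lower, and 4 target genes lower. Scaling to the same sum and setting the median log2 ratio to 0 both gave 2 regulator genes higher and 0 lower, and 1 immediate-early gene lower. Over all genes, 649 were called higher and 641 lower, against 1434 and 1640 by the fold alone, 321 and 443 at a mean of at least 5 FPKM, 450 and 403 at 2-fold, 737 and 541 after scaling to the same sum, and 697 and 575 after setting the median log2 ratio to 0. The share of calls that were higher was 50.3% as reported and 57.7% after scaling to the same sum.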
